A study of Mus musculus with 8 samples.

Results

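The mouse mitochondrial genome is a circle of 16299 bases that carries 37 genes, and all 37 had a row in a count table of 56691 genes from mouse cerebellum. The genes were taken by position: the Ensembl identifiers of the table were matched to the GENCODE annotation of the GRCm39 genome, and every gene on the mitochondrial chromosome was kept. Earlier results of these data were known when this group of genes was chosen. The 37 genes comprised 13 mRNAs, 2 rRNAs and 22 tRNAs. Bulk RNA-seq libraries came from the cerebellum of 4 *Atm*-WT mice (ATM +/+, named 2M, 7M, 13M and 32M) and 4 *Atm*-KO mice (ATM -/-, named 1M, 7F, 11M and 12M), 1 library per mouse, all aged 6 months and bred as littermates of the B6;129S4-*Atm*tm1Bal/J line. The knockout is constitutive and not limited to a cell type, and the strain background is mixed. ATM is the kinase that signals DNA double-strand breaks and is lost in Ataxia-Telangiectasia. The comparison asked how the transcripts of the mitochondrial genome differ between these genotypes.

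The circle encodes core subunits of the respiratory chain and of ATP synthase, together with the rRNAs and tRNAs that translate them. Each strand is transcribed as a long precursor from which tRNAs are cut, and this frees the mRNAs and rRNAs that lie between them. Most genes are read from 1 strand, and *mt-Nd6* and a few tRNAs are read from the other. Cerebellar neurons, Purkinje cells among them, draw most of their ATP from this chain. In the genome record 28 genes lie on the plus strand and 9 on the minus strand. Neighbours abut or share bases, and this limits what a count per gene can hold. The 3 overlaps or ends shown here, read from GRCm39 with shared bases in capitals, include the longest overlap, between *mt-Atp8* and *mt-Atp6* (43 bases), and the meeting of *mt-Nd5* with *mt-Nd6* from opposite strands (14 bases).
end of mt-Atp8 and start of mt-Atp6, chrM:7907-7989, plus strand: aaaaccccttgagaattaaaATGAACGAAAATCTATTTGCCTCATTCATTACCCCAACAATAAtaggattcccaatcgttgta
end of mt-Nd4l and start of mt-Nd4, chrM:10147-10193, plus strand: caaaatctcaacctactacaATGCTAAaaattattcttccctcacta
end of mt-Nd5 and end of mt-Nd6, chrM:13532-13585, plus strand: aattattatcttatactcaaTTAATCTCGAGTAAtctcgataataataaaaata
The strand setting of the counting was not stated, so reads of *mt-Nd6* and reads from the opposite strand across it cannot be told apart. The same holds for the 8 tRNAs of the minus strand.

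A stretch of the circle also has a copy in the nuclear genome. The bases 6390 to 11042 lined up with chr1:24650616-24655269, on the minus strand of that chromosome, at 99.94% identity over 4654 aligned bases, with 2 mismatches and 1 gap. Written as mitochondrial base, position on the circle and base of the copy, the mismatches were A6393T in *mt-Co1* and T9461C in *mt-Nd3*, and the gap was a base that only the copy has, in *mt-Tr*. Between the mismatches 3067 bases were identical. The sequence around T9461C is shown because it is the only base that separates *mt-Nd3* from its copy over the 41 bases shown, with the differing base in capitals and both sequences read in the direction of the mitochondrial plus strand.
mitochondrial genome, chrM:9441-9481, plus strand: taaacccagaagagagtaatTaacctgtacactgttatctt
nuclear copy, chr1:24652178-24652218, minus strand: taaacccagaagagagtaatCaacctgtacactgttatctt
All windows of 100 bases in *mt-Co2*, *mt-Atp8*, *mt-Atp6*, *mt-Co3* and *mt-Nd4l* occurred letter for letter in the nuclear genome, as did 98.8% of those in *mt-Nd3*, 60.8% in *mt-Nd4* and 30.8% in *mt-Co1*. In *mt-Nd1*, *mt-Nd5*, *mt-Nd6*, *mt-Cytb* and *mt-Rnr1* no window did, and in *mt-Nd2* and *mt-Rnr2* 3.19% and 1.21% did. A read inside a shared window fits both places equally well, and the table's treatment of such reads was not stated.

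Libraries held between 65967130 and 88030300 counts, and 22423 genes passed the filter on low counts. *Atm* itself was lower in every *Atm*-KO library (41.1 to 51.1 CPM, the counts of a gene per 1000000 counts of its library) than in every *Atm*-WT library (59.0 to 80.0 CPM), and was still counted in all of them. Levels are given as CPM on library sizes scaled by TMM, and fold changes, standard errors (SE) and p-values come from the quasi-likelihood test of edgeR, with p-values adjusted by Benjamini-Hochberg over every gene tested. The 8 libraries are separate mice, and mouse 7F alone was labelled F rather than M. Granule cell and Purkinje cell markers were abundant (summed CPM of at least 3580 and 7496 in every library). Values per mouse are given in the order 2M, 7M, 13M, 32M for *Atm*-WT and 1M, 7F, 11M, 12M for *Atm*-KO.

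The 37 genes together took less of the *Atm*-KO libraries, and the groups overlapped. Their share of all counts was 1.199%, 0.903%, 0.909% and 1.14% in *Atm*-WT (mean 1.04% ± 0.153, SD, n = 4) and 0.671%, 0.952%, 0.726% and 0.565% in *Atm*-KO (0.729% ± 0.163, n = 4), a ratio of 0.703. *Atm*-KO mouse 7F lay above *Atm*-WT mice 7M and 13M, and the other 3 *Atm*-KO mice lay below every *Atm*-WT mouse. The mRNAs carried most of the difference, with 0.928% ± 0.141 in *Atm*-WT and 0.645% ± 0.133 in *Atm*-KO. The rRNAs took 0.107% ± 0.0396 and 0.0820% ± 0.0305, and the tRNAs 0.00178% ± 0.000133 and 0.00176% ± 0.000278. A sum over chosen genes was given no test. In bulk tissue, fewer cells of a type and less RNA per cell cannot be told apart, and neither can fewer mitochondria per cell and less RNA per mitochondrion.

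**Figure D1:**
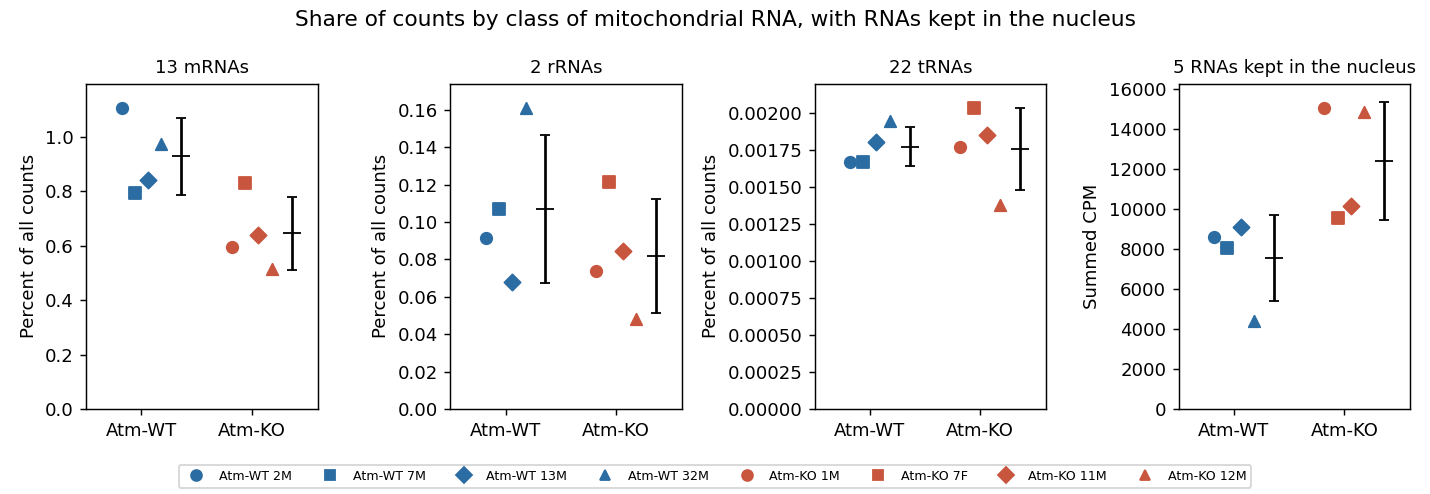
Share of all counts (percent) taken by the 13 mRNAs, the 2 rRNAs and the 22 tRNAs of the mitochondrial genome, and summed CPM of 5 RNAs kept in the nucleus, with 1 symbol per mouse and the mean ± SD of 4 mice in black. The mRNA share averaged 0.928% in *Atm*-WT and 0.645% in *Atm*-KO with 1 *Atm*-KO mouse among the *Atm*-WT values, the tRNA share was 0.00178% and 0.00176%, and the nuclear RNAs did not overlap between genotypes.

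By gene, 20 of the 22 mitochondrial genes that passed the filter had a log2 fold change below 0, against 53.1% of all genes tested, and 11 of the 20 lay above 0 when libraries were scaled to their mitochondrial counts instead. None of the 22 had an edgeR adjusted p under 0.05, a threshold that 4 of 22423 genes passed (0.0178%). At an unadjusted p under 0.05, 9 of the 22 were lower (8.48% of all genes tested were) and 1 was higher (11.7% were). Every *Atm*-KO value lay below every *Atm*-WT value for 4 genes (5.12% of all genes tested) and above for 1 gene (6.47%). The methods of the study name DESeq2, while a legend of its supplementary figures names limma for the same data. DESeq2 gave 5 mitochondrial mRNAs an adjusted p under 0.05, all lower, beside 1552 of 20724 genes (7.49%). edgeR without the filter on low counts gave 6, beside 1.62% of its genes, and limma voom gave 0. DESeq2 gave no adjusted p to *mt-Ty* and *mt-Tt*.

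**Figure D2:**
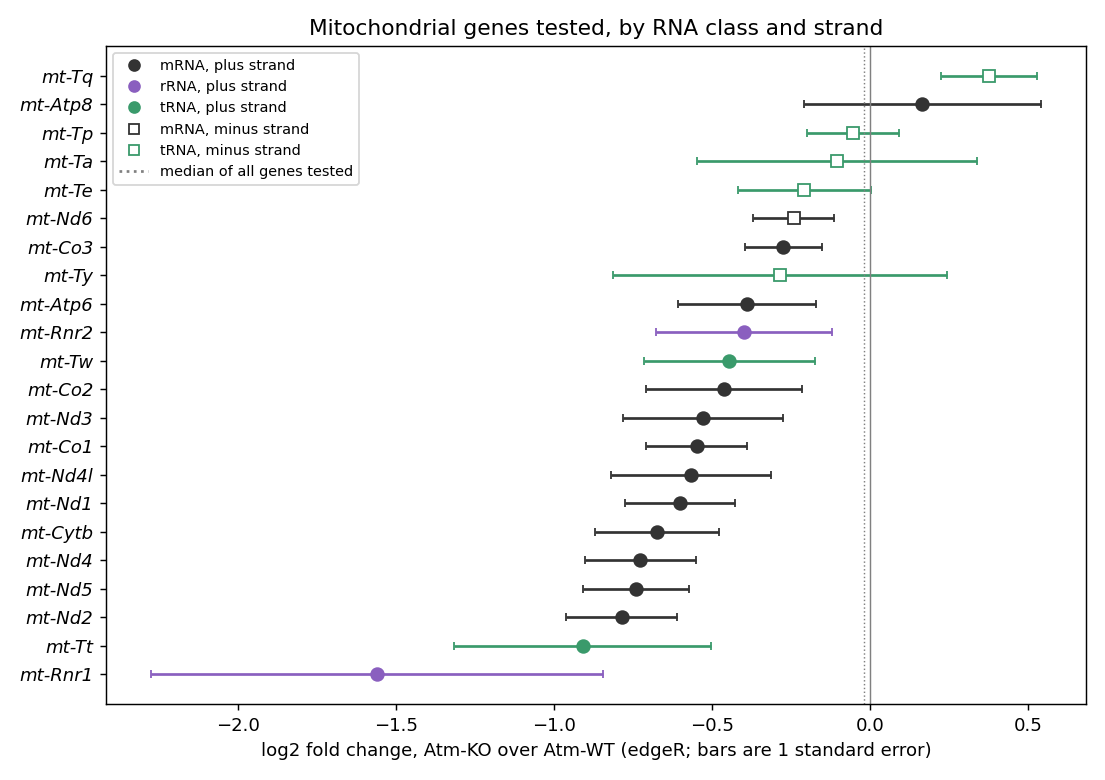
The log2 fold change of *Atm*-KO over *Atm*-WT for the 22 mitochondrial genes tested, with 1 standard error either side, on libraries scaled by TMM, coloured by RNA class, filled circles for the plus strand and open squares for the minus strand. Values ran from -1.56 for *mt-Rnr1* to 0.38 for *mt-Tq*, and the dotted line marks the median of all genes tested, -0.02.

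The 2 rRNAs form the mitochondrial ribosome and stood far apart in level. *mt-Rnr2*, the rRNA of the large subunit, was at 922, 1048, 692 and 1569 CPM in *Atm*-WT and at 703, 1214, 828 and 464 CPM in *Atm*-KO. The groups overlapped, and the log2 fold change was -0.40 (SE 0.279, edgeR adjusted p = 0.446), from -0.65 without *Atm*-KO mouse 7F to -0.15 without *Atm*-WT mouse 32M. *mt-Rnr1*, the rRNA of the small subunit, was at 8.56, 70.8, 3.61 and 18.2 CPM in *Atm*-WT and at 6.18, 14.9, 8.01 and 5.15 CPM in *Atm*-KO. *Atm*-WT mouse 7M stood above all others. On the log2 scale the fold change was -1.56 (SE 0.716, edgeR adjusted p = 0.249), and without mouse 7M it was -0.25. Both rRNAs belong to 1 precursor, yet *mt-Rnr2* had 14.8 to 191 times the counts of *mt-Rnr1* in *Atm*-WT and 81.3 to 114 times in *Atm*-KO. No window of 100 bases of *mt-Rnr1* occurred in the nuclear genome. The labels do not say whether rRNA was depleted or mRNA was selected by its poly(A) tail.

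Complex I, the NADH dehydrogenase that feeds electrons into the chain, has 7 of its subunits on the circle, and all 7 mRNAs had log2 fold changes below 0, from -0.78 to -0.24, 5 of them with an unadjusted p under 0.05 (53.1% of all genes tested were below 0, and 8.48% lower at that p). *mt-Nd5*, a proton-pumping subunit, was at 565, 307, 302 and 352 CPM in *Atm*-WT and at 224, 230, 232 and 227 CPM in *Atm*-KO. The groups did not overlap, and the *Atm*-KO mice differed from each other by far less (SD 3.74 CPM) than the *Atm*-WT mice (SD 124 CPM). The log2 fold change was -0.74 (SE 0.168, edgeR adjusted p = 0.0938). *mt-Nd2*, another membrane subunit, was at 445, 288, 251 and 272 CPM in *Atm*-WT and at 178, 230, 168 and 152 CPM in *Atm*-KO, again without overlap. Its log2 fold change was -0.78 (SE 0.175, edgeR adjusted p = 0.0931). *mt-Nd4*, a further proton-pumping subunit, was at 512, 342, 305 and 279 CPM in *Atm*-WT and at 202, 273, 192 and 203 CPM in *Atm*-KO. Here too the groups did not overlap, with *Atm*-KO mouse 7F just below *Atm*-WT mouse 32M. The difference on the log2 scale was -0.73 (SE 0.176, edgeR adjusted p = 0.0958). These 3 mRNAs were the only ones among the 13 whose groups were apart (5.12% of all genes tested were apart and lower).

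*mt-Nd1*, the subunit next to the quinone site, was at 580, 364, 328 and 431 CPM in *Atm*-WT and at 269, 353, 277 and 222 CPM in *Atm*-KO. Mouse 7F overlapped the *Atm*-WT range, and the log2 fold change was -0.60 (SE 0.174, edgeR adjusted p = 0.116). The small membrane subunits *mt-Nd3* and *mt-Nd4l* were counted at 1.14 to 2.72 CPM and at 1.21 to 3.73 CPM over the 8 mice, with log2 fold changes of -0.53 (SE 0.254) and -0.57 (SE 0.254). Both lie in the stretch copied to chromosome 1, and their edgeR adjusted p-values were 0.269 and 0.240. *mt-Nd6*, the only mRNA of the minus strand, was at 285, 286, 345 and 330 CPM in *Atm*-WT and at 310, 298, 250 and 197 CPM in *Atm*-KO. The groups overlapped, and its log2 fold change of -0.24 (SE 0.129, edgeR adjusted p = 0.317) was the nearest to 0 among the mRNAs of complex I.

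*mt-Cytb*, cytochrome b, is the only subunit of complex III encoded on the circle. It was at 960, 612, 575 and 645 CPM in *Atm*-WT and at 382, 624, 401 and 345 CPM in *Atm*-KO. Mouse 7F lay within the *Atm*-WT range and the other 3 *Atm*-KO mice lay below it. The log2 fold change was -0.67 (SE 0.197, edgeR adjusted p = 0.119).

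Complex IV, cytochrome c oxidase, passes electrons to oxygen. *mt-Co1*, its catalytic subunit, was the most counted mitochondrial gene, with 63.8 to 69.3% of all mitochondrial counts in each library. It was at 7816, 6066, 6463 and 7219 CPM in *Atm*-WT and at 4115, 6332, 4758 and 3662 CPM in *Atm*-KO. The same mouse, 7F, overlapped the *Atm*-WT range, and the log2 fold change was -0.55 (SE 0.160, edgeR adjusted p = 0.118). *mt-Co2*, which takes electrons from cytochrome c, was at 22.4, 8.4, 11 and 12.8 CPM in *Atm*-WT and at 11.3, 10.3, 9.79 and 8.33 CPM in *Atm*-KO. Mouse 2M was the highest of all and the other 7 mice overlapped, with a log2 fold change of -0.46 (SE 0.247, edgeR adjusted p = 0.317) that was -0.11 without mouse 2M. *mt-Co3*, a core membrane subunit, was at 25.0, 18.8, 22.9 and 26.8 CPM in *Atm*-WT and at 20.2, 20.8, 20.5 and 15.8 CPM in *Atm*-KO. Its log2 fold change was -0.27 (SE 0.122, edgeR adjusted p = 0.240), with *Atm*-WT mouse 7M below 3 of the *Atm*-KO mice.

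ATP synthase, complex V, has *mt-Atp6*, part of its proton channel, and the small *mt-Atp8* on the circle. *mt-Atp6* was at 6.82, 4.85, 3.48 and 5.05 CPM in *Atm*-WT and at 4, 4.85, 3.66 and 2.90 CPM in *Atm*-KO (log2 fold change -0.39, SE 0.218, edgeR adjusted p = 0.340). *mt-Atp8* was at 0.317, 0.349, 0.303 and 0.420 CPM in *Atm*-WT and at 0.612, 0.426, 0.322 and 0.192 CPM in *Atm*-KO. It was the only mRNA above 0, at 0.17 (SE 0.375, edgeR adjusted p = 0.840), and without *Atm*-KO mouse 1M the value was -0.14. Both mRNAs overlapped between the genotypes. Over all 13 mRNAs the median log2 fold change was -0.55, beside -0.06 over nuclear protein-coding genes and -0.02 over all genes tested.

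**Figure D3:**
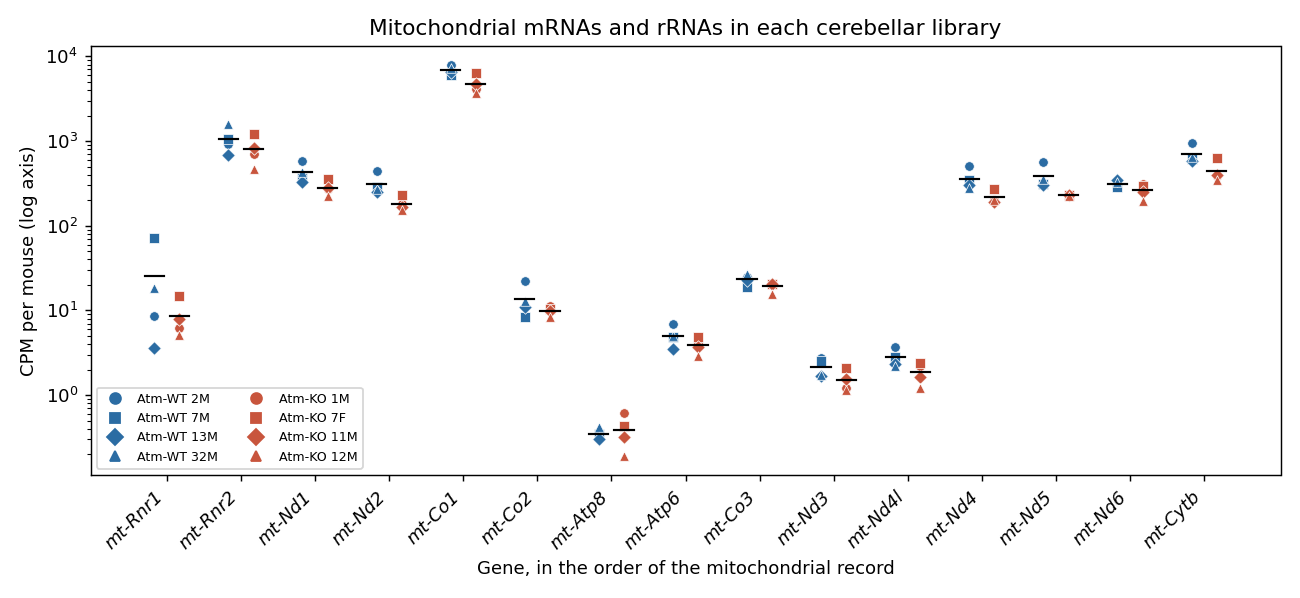
CPM (log axis) of the 2 rRNAs and 13 mRNAs in each mouse, *Atm*-WT in blue and *Atm*-KO in red, with black lines at the mean of 4 mice. *mt-Nd2*, *mt-Nd4* and *mt-Nd5* were apart between the genotypes, *Atm*-KO mouse 7F (red square) was the highest *Atm*-KO value for *mt-Co1* (6332 CPM) and *mt-Cytb* (624 CPM), and *mt-Rnr1* spread from 3.61 to 70.8 CPM in *Atm*-WT.

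Levels can be set against each other only per length. In *Atm*-WT *mt-Co1* had 4460 ± 505 CPM per 1000 bases (SD, n = 4), 6.67 times the next gene, and its lowest mouse was above the highest of every other gene. *mt-Rnr2* (669 ± 235), *mt-Cytb* (610 ± 155), *mt-Nd6* (600 ± 59.7), *mt-Nd1* (445 ± 116), *mt-Nd2* (302 ± 85.1), *mt-Nd4* (261 ± 76.2) and *mt-Nd5* (209 ± 68.2 CPM per 1000 bases) followed, each overlapping the next. Between *mt-Nd5* and *mt-Co3* the level dropped 7.02-fold with no overlap. *mt-Co3* (29.8 ± 4.33), *mt-Rnr1* (26.5 ± 32.4), *mt-Co2* (20 ± 8.96), *mt-Nd4l* (9.36 ± 2.34), *mt-Atp6* (7.42 ± 2.01), *mt-Nd3* (6.21 ± 1.54) and *mt-Atp8* (1.70 ± 0.256 CPM per 1000 bases) made up the low end. These overlapped their neighbours except *mt-Atp8*, which lay 3.65-fold below *mt-Nd3* with no overlap. Apart from *mt-Rnr1*, these were the 6 mRNAs whose sequence lies almost wholly in the stretch copied to chromosome 1. With the CPM of the whole gene divided by its number of 100-base windows absent from the nuclear genome, in place of its length, *mt-Nd6* ranked 2 in place of 4 and *mt-Nd4* ranked 4 in place of 7. For *mt-Nd4* 777 of 1279 windows were left out as shared. For *mt-Nd6* none was, and its move came from counting 420 windows in place of 519 bases, which favours short genes.

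**Figure D4:**
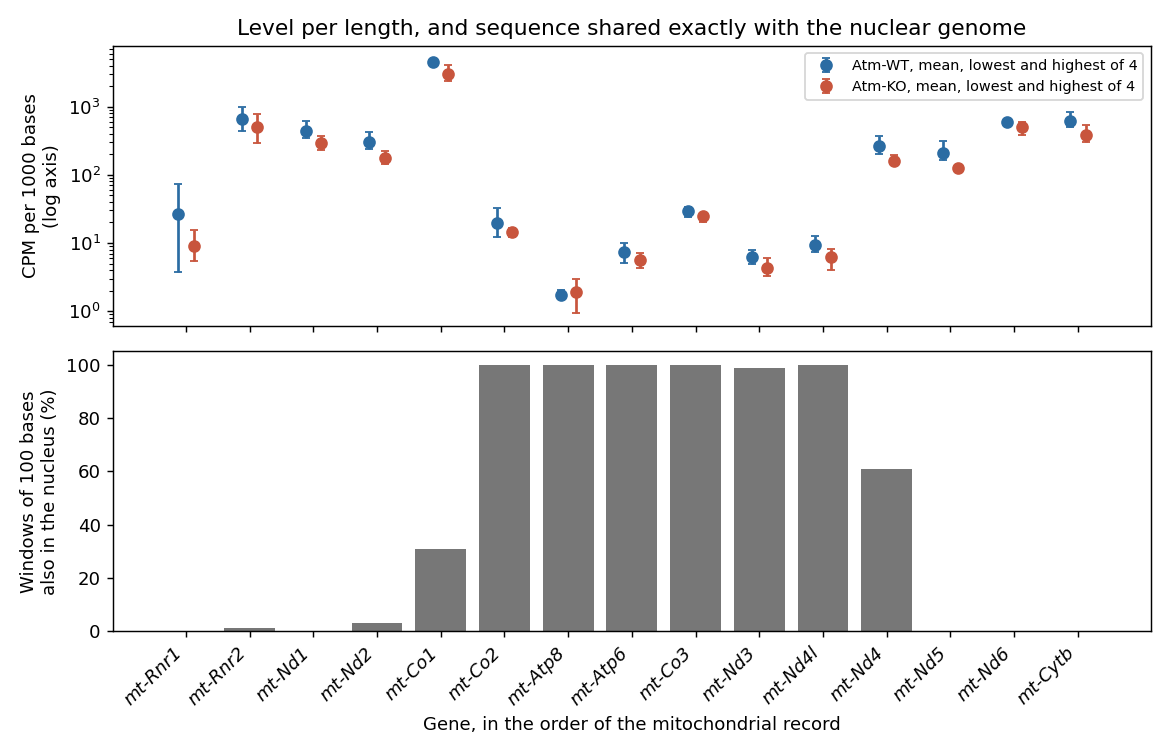
Upper plot: CPM per 1000 bases (log axis) of each rRNA and mRNA, mean of 4 mice with bars from the lowest to the highest mouse, *Atm*-WT in blue and *Atm*-KO in red. Lower plot: percent of the gene's windows of 100 bases found letter for letter in the nuclear genome. The 6 mRNAs at or near 100% had between 1.70 and 29.8 CPM per 1000 bases in *Atm*-WT, and *mt-Nd4*, at 60.8%, had 261.

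The nuclear copies had rows of their own in the table, as pseudogenes, and for some genes they held as many counts as the mitochondrial gene. *mt-Co2* had 1701, 625, 943 and 1098 counts in *Atm*-WT and 920, 799, 759 and 563 in *Atm*-KO. *Gm28661*, its copy on chromosome 1, had 1758, 572, 902 and 1072 counts and 932, 747, 648 and 486. The ratio of *mt-Co2* to *Gm28661* stayed between 0.968 and 1.17 in the 8 libraries, so mouse 2M was high in both. *mt-Co3* had between 1.01 and 1.34 times the counts of *Gm28437*, and *mt-Atp6* between 0.549 and 0.826 times those of *Atp6-ps*. *mt-Nd4l* had between 1.59 and 2.88 times the counts of *Gm10222*, and *mt-Nd3* between 2.30 and 6.67 times those of *Gm28438*, which had a mean below 1 CPM in each genotype and was added after its values were seen to complete the stretch. By contrast *mt-Nd4* had at least 63.2 times the counts of *Gm28439*, and *mt-Co1* at least 502 times those of *Gm29216*, which line up with a part of each gene. The copy on chromosome 2, which matches bases 4441 to 7699 at 97.36% identity, held *Gm13340* with 25063 counts over the 8 libraries against 3660329 for *mt-Co1*, and *Gm13341* with 2898 counts against 7408 for *mt-Co2*. Because near-identical rows can split reads, the levels of the 6 mRNAs are uncertain, and these 6 held 0.401 to 0.614% of mitochondrial counts. With the counts of the copies added to the genes they line up with, *mt-Co3* had a log2 fold change of -0.31, *mt-Atp6* -0.47, *mt-Nd3* -0.66 and *mt-Nd4l* -0.63. The combined value of *mt-Co2* is not given here. Its copies had log2 fold changes of -0.56 (*Gm28661*) and 0.01 (*Gm13341*). The number of mitochondrial genes with an edgeR adjusted p under 0.05 was still 0, with 11 at an unadjusted p under 0.05.

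**Figure D5:**
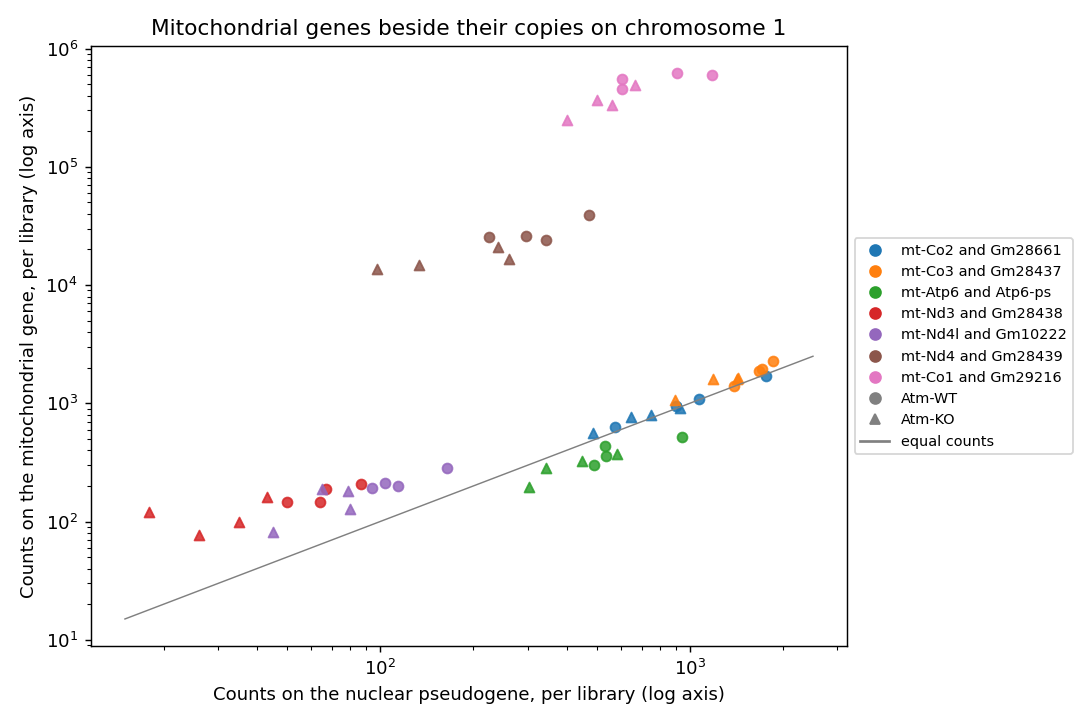
Counts of 7 mitochondrial mRNAs (vertical) against those of their pseudogene copies on chromosome 1 (horizontal), both on log axes, with 1 point per library, circles for *Atm*-WT and triangles for *Atm*-KO, and a line at equal counts. *mt-Co2* and *mt-Co3* lay along the line, and *mt-Nd4* and *mt-Co1* lay at least 63.2 and 502 times above it.

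The tRNAs, which carry amino acids to the mitochondrial ribosome, were counted by strand. Of the 14 on the plus strand, 9 had no count in any library, which allows at most 3 counts or 0.0341 to 0.0455 CPM per library, 3 had 2 to 10 counts over all libraries and 2 passed the filter. Of the 8 on the minus strand, none was without a count, 3 had 3 to 42 counts over all libraries and 5 passed the filter. The minus-strand tRNAs held 79.4% of the 11146 tRNA counts. The 22 genes are 59 to 75 bases long, and the size selection of the libraries was not stated. Of those not tested, *mt-Ts1*, a serine tRNA, had 12, 6, 7 and 8 counts in *Atm*-WT and 2, 3, 2 and 2 in *Atm*-KO. It was singled out after its counts were seen, and shares 3 bases with the end of the far more abundant *mt-Co1* on the other strand.

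The sequences of 4 tRNAs, each read 5′ to 3′ on the tRNA's own strand, stand for these groups: *mt-Tq* (glutamine) and *mt-Tt* (threonine) because their genotypes did not overlap, *mt-Tp* (proline) because it had the most counts, and *mt-Tv* (valine) because it had none although it lies between the rRNAs. Capitals mark bases that belong to a neighbouring gene too, and all others are in lower case.
mt-Tq, chrM:3772-3842, minus strand: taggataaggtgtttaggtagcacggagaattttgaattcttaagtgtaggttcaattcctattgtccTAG
mt-Tt, chrM:15289-15355, plus strand: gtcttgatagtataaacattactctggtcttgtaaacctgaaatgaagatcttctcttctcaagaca
mt-Tp, chrM:15356-15422, minus strand: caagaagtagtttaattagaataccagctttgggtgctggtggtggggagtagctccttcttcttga
mt-Tv, chrM:1025-1093, plus strand: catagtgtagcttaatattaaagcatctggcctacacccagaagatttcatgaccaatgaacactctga

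*mt-Tq* was the only mitochondrial gene with an unadjusted p under 0.05 that was higher in *Atm*-KO. It was at 3.26, 3.90, 3.72 and 3.62 CPM in *Atm*-WT and at 5.06, 4.36, 5.45 and 3.95 CPM in *Atm*-KO, so that the groups were just apart (log2 fold change 0.38, SE 0.152, edgeR adjusted p = 0.199). *mt-Tt* was at 0.224, 0.201, 0.245 and 0.350 CPM in *Atm*-WT and at 0.147, 0.0775, 0.142 and 0.178 CPM in *Atm*-KO, from 6 to 30 counts per library (log2 fold change -0.91, SE 0.407, edgeR adjusted p = 0.240). The groups were apart on very few counts. *mt-Tp* lay between 6.44 and 9.60 CPM in all mice and overlapped (log2 fold change -0.05, SE 0.145, edgeR adjusted p = 0.871). The tRNAs for tryptophan (*mt-Tw*, 1.63 to 4.75 CPM, log2 fold change -0.44), glutamate (*mt-Te*, 0.918 to 1.59 CPM, -0.21), alanine (*mt-Ta*, 0.133 to 0.502 CPM, -0.10) and tyrosine (*mt-Ty*, 0.0612 to 0.327 CPM, -0.28) overlapped too, with unadjusted edgeR p-values above 0.05.

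Proportions within the mitochondrial counts were compared by strand and by class. Genes of the minus strand took 2.44%, 3.18%, 3.86% and 3.08% of mitochondrial counts in *Atm*-WT and 5.03%, 3.26%, 3.70% and 3.78% in *Atm*-KO, and overlapped. All tRNAs together took 0.140%, 0.185%, 0.199% and 0.172% in *Atm*-WT and 0.264%, 0.214%, 0.256% and 0.244% in *Atm*-KO. For the tRNAs the groups were apart, every *Atm*-KO mouse being higher. *mt-Tq* alone took 0.0351% ± 0.00678 of mitochondrial counts in *Atm*-WT and 0.0679% ± 0.0153 in *Atm*-KO. When each library was scaled to its mitochondrial total in place of all its counts, *mt-Tq* was higher in *Atm*-KO by 0.95 on the log2 scale (edgeR adjusted p = 0.0114, 0.00108 to 0.0643 with each mouse left out) and *mt-Rnr1* had a log2 fold change of -1.16 (edgeR adjusted p = 0.0280, 3.44e-05 to 0.331 with each mouse left out). The *mt-Tq* call was lost without *Atm*-WT mouse 2M (0.84, edgeR adjusted p = 0.0643) or without *Atm*-KO mouse 1M (0.87, edgeR adjusted p = 0.0507). *mt-Rnr1* took 0.0704%, 0.750%, 0.0387% and 0.163% of mitochondrial counts in *Atm*-WT and 0.0959%, 0.155%, 0.112% and 0.0933% in *Atm*-KO. Its groups overlapped and its call rested on *Atm*-WT mouse 7M, without which the direction turned (log2 fold change 0.33, edgeR adjusted p = 0.331). This scaling raised the median of all genes to 0.57 and gave 41.8% of all genes an adjusted p under 0.05, so these calls are relative to the other mitochondrial genes and not to the cell's RNA. The median of the mRNAs was then -0.00037, and 2 of the 22 mitochondrial genes had an unadjusted p under 0.05.

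RNAs that stay in the nucleus were summed for comparison with the mitochondrial share. The summed level of *Malat1*, *Neat1*, *Meg3*, *Miat* and *Snhg11* was 8596, 8054, 9101 and 4382 CPM in *Atm*-WT and 15043, 9535, 10159 and 14846 CPM in *Atm*-KO. The groups were apart. All 5 had log2 fold changes above 0 (53.1% of all genes tested lay below 0), and none of the 5 encodes a protein. Above 0 lay 10523 of all 22423 genes tested, but only 5539 of the 15309 nuclear protein-coding genes among them. Outside that class, values above 0 were thus the majority. *Neat1*, a scaffold of nuclear paraspeckles, was the only one of the 5 that rose with an edgeR adjusted p under 0.05 (52.4 ± 5.45 and 85.1 ± 8.04 CPM, log2 fold change 0.70, adjusted p = 0.0371), a threshold that 0.0178% of all genes passed. *Meg3* had the largest value (0.80, adjusted p = 0.0931). *Malat1* made up 86.6% of the sum in *Atm*-WT and 86.0% in *Atm*-KO, with a log2 fold change of 0.71 (adjusted p = 0.149). *Miat* overlapped, with *Atm*-KO mouse 12M at 4.14 CPM below every *Atm*-WT mouse (13.8 to 17.02 CPM). Transcripts of the GENCODE class TEC, which await experimental testing, took 0.285% ± 0.0598 of counts in *Atm*-WT and 0.450% ± 0.0852 in *Atm*-KO, without overlap. The part of these RNAs in the mitochondrial values was not tested.

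Markers of 8 cell types that a cerebellum sample can hold (28 genes) had 6 with an unadjusted edgeR p under 0.05, all lower (8.48% of all genes tested and 1779 of 15309 nuclear protein-coding genes were), and 0 with an adjusted p under 0.05. Their summed levels overlapped between the genotypes in all 8 lists. Purkinje cell markers ran from 7574 to 9481 CPM in *Atm*-WT and from 7496 to 9040 in *Atm*-KO, and those of granule cells from 3580 to 4475 and from 3796 to 5286. The Purkinje sum mainly follows *Itpr1*, with a mean of 6088 of 8672 CPM in *Atm*-WT and 5624 of 8183 in *Atm*-KO. *Pcp2* added 67.4 and 51.2 CPM to it. Markers of Bergmann glia and astrocytes ran from 3021 to 3230 CPM and from 2576 to 3085, and those of oligodendrocytes from 2430 to 3258 and from 1511 to 2631. The Bergmann glia and astrocyte list held *Aldoc* (mean 1193 CPM in *Atm*-WT and 1072 in *Atm*-KO), which the paper uses to mark a subset of Purkinje cells. That sum is thus not of glia alone. The smaller sums were those of microglia (57.9 to 79.6 and 49.1 to 63.5 CPM), endothelial cells (123 to 147 and 104 to 142), red blood cells (5.35 to 40.2 and 7.22 to 45.9) and choroid plexus (722 to 1463 and 391 to 1148). *Ttr* made up most of the choroid plexus sum, with a mean of 1010 of 1109 CPM in *Atm*-WT and 714 of 788 in *Atm*-KO. The largest decrease and increase of each list, among genes with a mean of at least 1 CPM, were read on the log2 scale. They were -0.40 for *Pcp2* and 0.01 for *Car8* of Purkinje cells, -0.10 for *Cbln3* and 0.25 for *Fat2* of granule cells, and -0.42 for *Pecam1* and 0.13 for *Cldn5* of endothelial cells. *Gdf10* of Bergmann glia (-0.36), *Mbp* of oligodendrocytes (-0.56), *Csf1r* of microglia (-0.40) and *Folr1* of the choroid plexus (-0.60) had the largest decreases of lists with no value above 0, and *Hbb-bs* of red blood cells (0.64) the largest increase of a list with none below 0. *Gdf10*, *Csf1r* and *Pecam1* were lower in every *Atm*-KO mouse than in every *Atm*-WT mouse (edgeR adjusted p = 0.0948, 0.110 and 0.0948), as were 5.12% of all genes tested and 1067 of 15309 nuclear protein-coding genes. The part of cell composition in the mitochondrial values was not tested.

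The nuclear genes that make, process and use mitochondrial RNA lay on both sides of 0. Of 10 genes of mitochondrial transcription, 4 were below 0 and 6 above, with a median log2 fold change of 0.09. *Polrmt*, the mitochondrial RNA polymerase, was at 32.2 ± 1.78 CPM in *Atm*-WT and 34.6 ± 2.67 in *Atm*-KO (log2 fold change 0.11, edgeR adjusted p = 0.460), and *Tfam*, which packages and transcribes the circle, at 45.6 ± 2.70 and 43.7 ± 1.11 (-0.06, adjusted p = 0.625). By the largest changes, *Mterf1b* had 0.52 and *Tfb2m*, a transcription initiation factor, -0.07. Of 42 genes of RNA processing, modification and decay, 19 were below 0 and 23 above, with a median of 0.02. At an unadjusted p under 0.05, 1 of the 42 was lower and 4 were higher, beside 8.48% and 11.7% of all genes tested and 1779 and 1073 of 15309 nuclear protein-coding genes. *Trmu*, which thiolates mitochondrial tRNAs, had the largest increase in value (8.46 ± 0.701 and 12.6 ± 2.16 CPM, log2 fold change 0.58, edgeR adjusted p = 0.0942), and *Hsd17b10*, part of the enzyme that cuts the tRNAs' 5′ ends, the largest decrease (-0.22, adjusted p = 0.245). By DESeq2, beside 7.49% of all genes, the adjusted p was under 0.05 for *Mterf1b* (0.0456), *Trmu* (0.00269) and *Osgepl1* (0.0382), all higher, and edgeR without the filter on low counts gave *Trmu* 0.0365. *Polrmt* and *Tfam* were singled out for their function after their values were known.

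Of 23 genes that charge mitochondrial tRNAs, 9 were below 0 and 14 above, with a median of 0.03. At an unadjusted edgeR p under 0.05, 3 of the 23 were lower and 4 higher, beside 8.48% and 11.7% of all genes tested and 1779 and 1073 of 15309 nuclear protein-coding genes. *Lars2*, the leucyl-tRNA synthetase, was at 103, 157, 28.9 and 117 CPM in *Atm*-WT and at 26.0, 29.8, 27.0 and 37.3 CPM in *Atm*-KO. *Atm*-WT mouse 13M lay among the *Atm*-KO mice and the other 3 *Atm*-WT mice lay far above them, with a log2 fold change of -1.76 (SE 0.372, edgeR adjusted p = 0.0931). *Cars2*, the cysteinyl-tRNA synthetase, had the largest increase in value (9.04 ± 0.557 and 11.7 ± 0.587 CPM, log2 fold change 0.37, edgeR adjusted p = 0.107). By DESeq2 the adjusted p was 0.0106 for *Lars2*, which was lower, and 0.0109 for *Cars2* and 0.0173 for *Tars2*, which were higher. DESeq2 gave 7.49% of all its genes an adjusted p under 0.05. *Lars2* had an edgeR adjusted p of 0.00537 without the filter on low counts and of 0.000697 without *Atm*-WT mouse 13M. *mt-Rnr1* ranked the *Atm*-WT mice in the same order as *Lars2*, from 7M through 32M and 2M down to 13M. In *Atm*-KO the orders differed, with mouse 12M highest for *Lars2* and lowest for *mt-Rnr1* (5.15 CPM). The part of rRNA left in the libraries in the *Lars2* values was not tested.

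The nuclear subunits that assemble with the mitochondrial ones were mostly below 0. Of 44 such genes of complexes I, III, IV and V, 43 had a log2 fold change below 0 (53.1% of all genes tested and 63.8% of nuclear protein-coding genes did). At an unadjusted edgeR p under 0.05, 19 were lower and 1 was higher (8.48% and 11.7% of all genes tested). Among the 15309 nuclear protein-coding genes tested, the class of all 44, 1779 were lower and 1073 higher at that p. By edgeR, 0 of the 44 had an adjusted p under 0.05. DESeq2, which called 7.49% of all its genes, gave an adjusted p under 0.05 to *Cox6a1* of complex IV (0.0361) and *Atp5mc1* of complex V (0.0499), both lower. The medians were -0.13 for the 7 core subunits of complex I, -0.20 for the 9 of complex III, -0.28 for the 11 of complex IV and -0.20 for the 17 of complex V. With a surrogate variable in the fit they were -0.046, -0.090, -0.098 and -0.064. *Cox6a1* of complex IV had the largest decrease in value (28.5 ± 9.03 and 19.5 ± 0.995 CPM, log2 fold change -0.55, edgeR adjusted p = 0.146). The largest decreases in the other lists were those of *Ndufs8* (-0.30), *Uqcr11* (-0.39) and *Atp5mc2* (-0.35), and *Atp5mg* was the only one above 0 (0.27, adjusted p = 0.242). The difference between these lists and the mitochondrial mRNAs was not tested.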

How the data were processed

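Bulk RNA-seq of cerebellum from 4 *Atm*-WT and 4 *Atm*-KO mice was analysed. The authors checked reads with FastQC 0.11.9, aligned them with STAR, counted them with featureCounts on GRCm39 and deposited raw counts per gene without normalization. Versions of STAR and featureCounts, the strand, pair and multi-mapping settings, and the library selection were not given in the sources used here. The unit of a count, read or pair, was not settled.

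Identifiers were matched without version to GENCODE vM39 on GRCm39 (56017 of 56691, 98.8%), a different release from that of the authors. Members and gene lists were chosen with earlier results of these data known. All 37 genes are accounted for, and those that passed the filter are named. Of each nuclear or marker list, the genes with an adjusted p under 0.05, otherwise those with the largest increase and decrease at a mean of at least 1 CPM, are named. Copies of mitochondrial sequence were found with blastn 2.17.0 (at least 90% identity over 100 bases), and pseudogenes overlapping them are named at a mean of at least 1 CPM. Exact windows of 100 and 150 bases were compared on both strands.

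The whole table was fitted with edgeR 4.0.16 (R 4.3.3): filterByExpr, TMM, glmQLFit and glmQLFTest, two-sided, no covariate, Benjamini-Hochberg over 22423 genes, threshold 0.05. Labels pair no mice. Alternatives were DESeq2 1.42.0, limma voom 3.58.1, other scalings and filters, halved counts, a surrogate variable from sva 3.50.0, scaling to mitochondrial counts and leaving out each library. Adding the copies' counts, and leaving out libraries under the mitochondrial scaling, were chosen after seeing the data. The code of the fit was also run on simulated counts, and no result given here draws on that run.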

Additional observations from a re-analysis of the deposited data

Results flagged for a closer look

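In groups of 4 mice, a value was picked out when its gap to the nearest of the others was too large a part of the group's range by Dixon's test at the 95% level. Among 46 groups (the tested mitochondrial genes and their share in each genotype), 2 were picked out, where chance alone would give about 2.3. The *mt-Co3* level of *Atm*-KO mouse 12M was 15.8 CPM, below the other 3 *Atm*-KO mice at 20.2 to 20.8 CPM. The *mt-Nd4* level of *Atm*-KO mouse 7F was 273 CPM, above the other 3 at 192 to 203 CPM. Mouse 7F was also the highest *Atm*-KO mouse for *mt-Co1*, *mt-Cytb* and *mt-Rnr2*, and mouse 12M the lowest for the same 3 genes.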

How the results depend on the processing

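Each of the 22 genes was refitted under up to 19 alternatives. The number of mitochondrial genes with an adjusted p under 0.05 was 0 in the main test, 5 with DESeq2, 6 without the filter on low counts, 2 relative to all mitochondrial counts and 0 under the 16 others. The causes were not tested. Adjusted p-values by DESeq2 were 0.000685 for *mt-Nd2*, 0.00106 for *mt-Nd5*, 0.0019 for *mt-Nd4*, 0.00852 for *mt-Co1* and 0.0109 for *mt-Nd1*, and over all alternatives they reached 0.380, 0.648, 0.553, 0.999 and 0.923. *mt-Cytb* was the sixth gene without the filter (0.0328, up to 0.614). The median log2 fold change of the mRNAs was -0.00037 relative to mitochondrial counts, where the scale itself follows the mRNAs, -0.70 to -0.40 with each mouse left out and -0.38 with a surrogate variable, which moved *mt-Co1* to -0.32, *mt-Co3* to -0.08 and *mt-Nd6* to -0.08. The share of counts differed by -0.308 percentage points, and by -0.382 to -0.253 with each mouse left out. Without *Atm*-KO mouse 11M, 6 genes in place of 10 had an unadjusted p under 0.05.

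Directions reversed relative to mitochondrial counts for *mt-Rnr2* (0.12), *mt-Tw* (0.072), *mt-Ta* (0.38), *mt-Ty* (0.29), *mt-Co2* (0.17), *mt-Atp6* (0.19), *mt-Co3* (0.31), *mt-Nd3* (0.0062), *mt-Nd6* (0.31), *mt-Te* (0.34) and *mt-Tp* (0.49), and with a surrogate variable for *mt-Rnr2* (0.17), *mt-Ta* (0.48), *mt-Ty* (0.0099) and *mt-Tp* (0.10). With each mouse left out *mt-Ta* ran from -0.34 to 0.15, *mt-Ty* from -0.50 to 0.16, *mt-Tp* from -0.14 to 0.033 and *mt-Atp8* from -0.14 to 0.38. Relative to mitochondrial counts and with each mouse left out, *mt-Rnr1* ran from -1.52 to 0.33, the latter without *Atm*-WT mouse 7M, and *mt-Tq* from 0.84 to 1.11. Without *Atm*-WT mouse 2M *mt-Nd5* was at -0.49 and *mt-Atp6* at -0.21, and without *Atm*-KO mouse 12M *mt-Nd6* was at -0.12, *mt-Tw* at -0.25 and *mt-Te* at -0.11. Apart from *mt-Rnr1* none of the genes whose direction reversed had an adjusted p under 0.05. Several tRNAs and *mt-Atp8* rest on few counts, and 4 mice per genotype limit every test. No paired analysis was possible because the labels pair no mice across genotypes.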
